A study of Arabidopsis thaliana with 66 samples.

Results

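Hop3 (AT4G12400) and ATHSP22.0 (AT4G10250) are 2 Arabidopsis thaliana chaperone genes, here followed across 22 groups of floral samples. They were picked by name from the 13350 genes that have a probe set of their own, with earlier results of these data known. Which comparison led to them is not recorded, so all of their levels are given as a description and no p-value is attached to either gene. Hop3 is read by 1 probe set and ATHSP22.0 by 1 probe set, and both were among the 17646 of 22810 probe sets bright enough to test.

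Chaperones bind proteins that are unfolded or still folding and keep them from clumping. Hop proteins are co-chaperones that hold HSP70 and HSP90 together, so that a client protein can pass between them, and Hop3 is the member of this family in Arabidopsis whose transcript is known to respond most to heat. ATHSP22.0 is a small heat shock protein of the endoplasmic reticulum; small heat shock proteins hold unfolding proteins without using ATP. Transcripts of both genes are known as low in unstressed plants and high after heat, under the control of heat shock factors.

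The arrays were 66 one-colour Affymetrix hybridisations of total RNA, with 3 arrays in each of 22 groups. Plants were Col-0 grown on soil in continuous light at 23 °C, except for the last group below. At stage 12 the sepals, petals, stamens and carpels were profiled as separated organs, and at stage 15 the same 4 organs and the pedicels were, while a further group was mature pollen. Flowers of 7 floral homeotic or meristem mutants in the Col-0 background (ufo-1, ag-12, ap3-6, ap2-6, ap1-15, lfy-12 and clv3-7) were taken at an age equivalent to stage 12; several of these lack or replace whole organs, such as ap3-6, which has neither petals nor stamens. Wild-type whole flowers were taken at stages 9, 10/11, 12 and 15. A last group of wild-type flowers came from long days at 20 °C with no stage given. The labels do not say whether the 3 arrays of a group came from separate plants. The p-values below therefore measure the spread between arrays of a group, pooled over the 22 groups, which may be technical.

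Signal is on the linear scale of the deposited intensity, where each array has a trimmed mean of 100. A floor of 22.6, the 40th percentile of all values, was set as the level below which a signal has no order. Between 11798 and 14670 probe sets lay above it on each array. The pollen, stamen and carpel labels were checked against marker genes, while sepals, petals and pedicels had no marker list of their own. The summed signal of 7 pollen markers was 52463 to 55307 in mature pollen and 12358 to 14905 in stamens of both stages. It was 132 to 1078 in separated sepals, petals and carpels. Of 4 carpel and ovule markers, 3 were above the floor on all arrays in stage 12 carpels and 4 in stage 15 carpels, against at most 1 in any other separated organ.

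Both genes were high in the separated organs of stage 12 flowers and below the floor in the whole flowers of that stage. In stage 12 petals Hop3 had signals of 401, 405 and 405, in carpels 319, 321 and 384, in stamens 184, 185 and 216, and in sepals 120, 136 and 140. In whole stage 12 flowers it had 9.56, 11.3 and 14.9. All 12 organ arrays therefore lay above all 3 whole-flower arrays, as did those of 1.49% of all probe sets. The lowest organ array was far above the floor. The mean was at least 17.84-fold higher in petals than in whole flowers, at least 15.1-fold in carpels, at least 8.63-fold in stamens and at least 5.83-fold in sepals, where each fold is taken against the floor. For the differences between organs, in bulk samples such as these, fewer cells of a type and less RNA per cell cannot be told apart.

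ATHSP22.0, the small heat shock protein gene, followed the same order of organs. Its signals were 539, 612 and 703 in stage 12 petals, 327, 356 and 358 in carpels, 147, 149 and 169 in stamens, and 91.9, 109 and 116 in sepals. The whole stage 12 flowers gave 13.0, 14.7 and 16.3. Again no organ array overlapped the whole flowers, and all 12 lay above them, as for 1.49% of all probe sets. Against the floor the means were at least 27.3-fold higher in petals, at least 15.3-fold in carpels, at least 6.86-fold in stamens and at least 4.68-fold in sepals.

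A weighted mean of the 4 organs, whatever the weights, would lie between the lowest and the highest organ mean. For Hop3 that range was 132 in sepals to 403 in petals, and for ATHSP22.0 it was 106 in sepals to 618 in petals. The whole stage 12 flowers, at 11.9 ± 2.74 for Hop3 and 14.7 ± 1.61 for ATHSP22.0 (SD, n = 3), fell below both ranges, although a whole flower also holds a receptacle and other tissue that the 4 organ groups do not. The organ samples were separated from the flower and the whole-flower samples were not, so the state of the organ in the flower and its handling cannot be told apart.

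**Figure D1:**
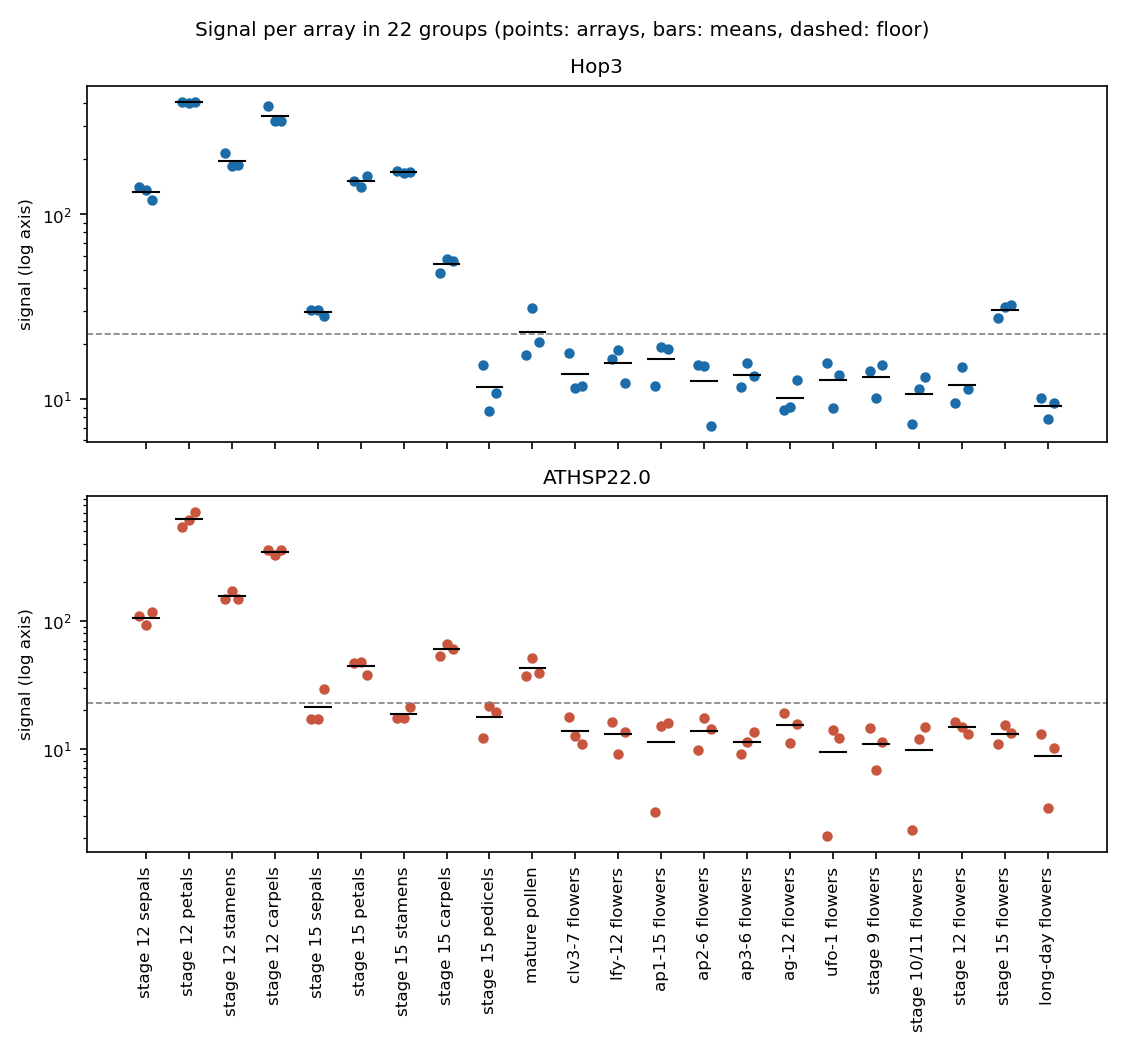
Signal of Hop3 (top) and ATHSP22.0 (bottom) on each array, on a log axis, in the 22 groups along the horizontal axis; points are arrays, black bars are group means and the dashed line is the floor of 22.6. The 12 stage 12 organ arrays are the highest for ATHSP22.0, from 91.9 to 703, while all 36 whole-flower arrays lie below the floor for ATHSP22.0 and all but the 3 stage 15 flower arrays do for Hop3.

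At stage 15, when the flower is open, the organs held less of both transcripts, and the 2 genes parted in the stamens. Hop3 had 168, 169 and 172 in stage 15 stamens, 141, 153 and 162 in petals, 48.2, 56.1 and 57.8 in carpels, and 28.2, 30.3 and 30.4 in sepals. Whole stage 15 flowers had 27.7, 31.5 and 32.3, so the sepals overlapped the whole flowers and the other 3 organs lay above them. For single organs the share of all probe sets that lay above whole flowers was not counted. The Hop3 mean in whole flowers was exceeded 5.56-fold in stamens, 4.98-fold in petals and 1.77-fold in carpels.

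ATHSP22.0 had 52.8, 60.3 and 66.3 in stage 15 carpels, 37.8, 46.5 and 47.9 in petals, 16.97, 17.01 and 29.4 in sepals, and 17.5, 17.5 and 21.0 in stamens. In whole stage 15 flowers it had 10.9, 13.2 and 15.2. Only the carpels and petals were above the floor on all 3 arrays, at least 2.64-fold and at least 1.95-fold above the whole flowers. All 12 organ arrays exceeded the whole flowers here too, as for 0.873% of all probe sets. The stamens and most sepal arrays did so below the floor, where signals have no order.

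Between stage 12 and stage 15 the 2 genes differed in the stamens. Hop3 was 170 ± 2.05 in stage 15 stamens and 195 ± 18.3 in stage 12 stamens (SD, n = 3 each), a 1.15-fold difference, with arrays that did not overlap. ATHSP22.0 was below the floor in stage 15 stamens, against 155 ± 12.4 in stage 12 stamens, at least 6.86-fold lower. In the other organs both genes were lower at stage 15. Hop3 was 4.45-fold lower in sepals, 2.66-fold in petals and 6.32-fold in carpels, and ATHSP22.0 at least 4.68-fold lower in sepals (1 of 3 stage 15 arrays was above the floor), 14.0-fold in petals and 5.80-fold in carpels, all with arrays that did not overlap. Whole flowers went the other way for Hop3, with 30.5 ± 2.46 at stage 15 and a stage 12 mean below the floor, at least 1.35-fold higher at stage 15. For these comparisons of stages, the share of all probe sets whose arrays did not overlap was not counted, so non-overlap is given as description only.

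Mature pollen, the male gametophyte, had ATHSP22.0 signals of 36.9, 39.2 and 50.8. They lay above those of stage 15 stamens, and the mean was at least 1.87-fold higher. How many of all probe sets lay above in this way was not counted. Hop3 had 17.43, 20.3 and 31.4 in pollen, so 1 of 3 arrays was above the floor, and the mean was 7.36-fold lower than in stage 15 stamens. Stage 15 pedicels, the stalks of the flowers, had 8.65, 10.8 and 15.44 for Hop3 and 12.0, 19.2 and 21.66 for ATHSP22.0. Pedicels therefore lay below the floor on all arrays for both genes.

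In mutant flowers, and in wild-type flowers before stage 15, both genes lay below the floor. The 21 mutant arrays ranged from 7.21 to 19.1 for Hop3, with a median of 13.3, and from 2.08 to 19.1 for ATHSP22.0, with a median of 13.5. Over stages 9, 10/11 and 12 the 9 wild-type arrays ranged from 7.38 to 15.45 for Hop3, with a median of 11.4, and from 2.33 to 16.3 for ATHSP22.0, with a median of 13.0. None of these 30 arrays reached the floor, so no fold is given between any mutant and wild-type stage 12 flowers. Flowers grown in long days, which differ in day length, temperature and perhaps stage at once, had 7.83, 9.59 and 10.2 for Hop3 and 3.46, 10.0 and 12.9 for ATHSP22.0, also below the floor.

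In order of level, Hop3 was highest in stage 12 petals, followed by stage 12 carpels, stage 12 stamens, stage 15 stamens, stage 15 petals, stage 12 sepals and stage 15 carpels. Each of these differed from the next group by more than the larger of their SDs, with no shared range. Stage 15 flowers, stage 15 sepals and mature pollen came next and could not be ordered, and 12 groups lay below the floor. For ATHSP22.0 the order was stage 12 petals, carpels, stamens and sepals, then stage 15 carpels, each apart from its neighbour, followed by stage 15 petals and mature pollen, which overlapped. Stage 15 sepals had 1 of 3 arrays above the floor and a mean below it, and the other 14 groups had none, so these were not ordered.

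Over the means of the 22 groups on the log2 scale, Hop3 and ATHSP22.0 had a Pearson correlation of 0.881. That value is a description only: most groups lie together below the floor, and the 8 separated floral organ groups lie apart from them. Over those 8 organ groups alone the Pearson correlation was 0.761 and the Spearman correlation 0.690. Stage 15 stamens were high for Hop3 and below the floor for ATHSP22.0.

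**Figure D2:**
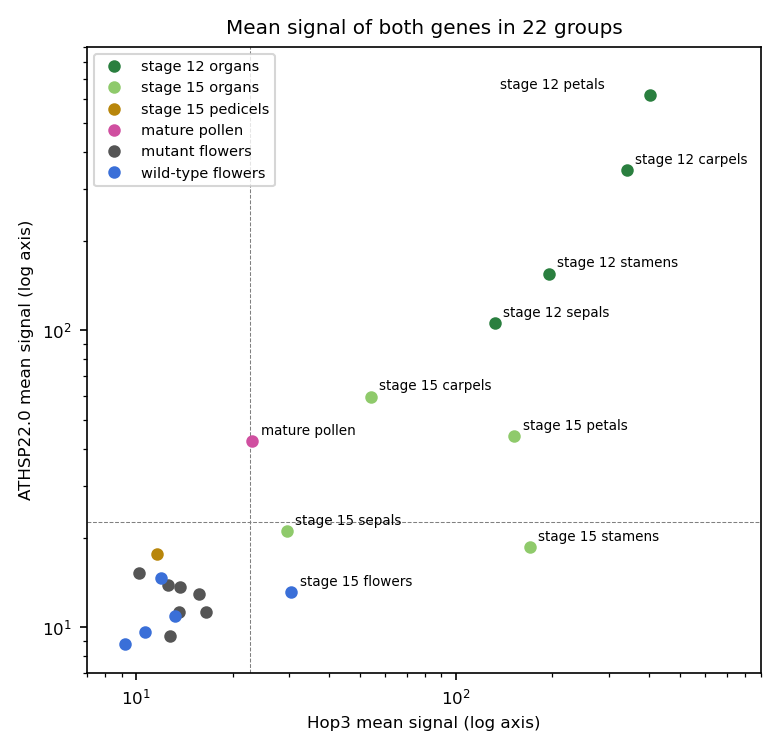
Mean signal of ATHSP22.0 (vertical) against Hop3 (horizontal) in the 22 groups, both on log axes, with dashed lines at the floor of 22.6. Stage 12 organs lie at the upper right, mutant and most wild-type flowers lie below both floors, and stage 15 stamens stand out with a Hop3 mean of 170 and ATHSP22.0 below the floor.

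Among 9809 other probe sets with 1 named gene, those whose group means followed Hop3 most closely included further chaperone genes. The closest was AT2G20560, a DnaJ-domain co-chaperone gene, with a Pearson correlation of 0.952, followed by AT5G35320 at 0.951, AT5G37670 at 0.945, Fes1A at 0.924 and AT1G14200 at 0.913. AT5G37670 encodes a small heat shock protein and Fes1A a factor that acts with cytosolic HSP70. For ATHSP22.0 the closest was AT1G71000, a further DnaJ-domain gene, at 0.972, followed by Fes1A at 0.940, HSA32 at 0.938, AT1G53540 at 0.920 and AT5G48570 at 0.915. HSA32 is needed for lasting heat tolerance after a first heat treatment, AT1G53540 encodes a cytosolic class I small heat shock protein, and AT5G48570, also called ROF2, is a peptidyl-prolyl isomerase of the FKBP family. All these values are over 22 group means that share the same clusters as above.

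These genes were picked for their likeness, so a like pattern is no separate result, and they differed in whether whole flowers had a signal above the floor. AT2G20560 averaged 594 ± 21.1 in stage 12 petals and was below the floor in stage 12 flowers. AT1G71000 averaged 204 ± 18.4 in stage 12 petals and was below the floor in stage 12 flowers. Fes1A was above the floor in both, with 639 ± 19.0 in petals and 67.7 ± 11.2 in flowers (SD, n = 3 each).

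The rest of the heat shock response was read from a list of 38 genes, of which 10 have a named probe set of their own and all 10 were tested. The list holds small heat shock protein genes of the cytosol and nucleus (AT2G29500, AT1G53540, AT1G54050 and AT4G21870), of the peroxisome (AT5G37670) and of the mitochondrion (AT5G51440 and AT1G52560), together with AT5G48570, HSA32 and Fes1A. None of 21 heat shock factor genes, the transcription factors that switch this response on, has a named probe set of its own here, and they were not analysed here. A gene was called where limma gave an adjusted p below 0.05, by Benjamini-Hochberg over all 17646 probe sets, and a difference of at least 2-fold on the scale of log2 of signal plus 11.3, which understates the change of low genes.

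In the separated organs of stage 12, 9 of the 10 heat shock genes rose against whole stage 12 flowers, where 0.992% of all probe sets did. This comparison took the mean of the log2 values of the 4 organs minus that of whole flowers, while averages over organs are of linear signal. It was chosen after the levels of these genes had been seen. AT2G29500, AT1G53540, AT5G37670, AT5G51440 and AT1G52560 were below the floor in stage 12 flowers, so only a rise could be called for them. The median log2 difference was 2.76 for the list and -0.09 for all probe sets. AT1G54050, a class III small heat shock protein gene, averaged 1308 over the 4 organs and 68.1 ± 11.1 in whole flowers, a log2 difference of 4.02 ± 0.15 (SE; limma adjusted p = 9.7e-31). AT2G29500, a class I gene, averaged 336 over the organs and was below the floor in flowers, at least 14.9-fold higher, with a log2 difference of 3.999 ± 0.12 (limma adjusted p = 4.9e-35). AT1G53540 was at least 10.6-fold higher, and AT5G48570 had a log2 difference of 3.34 ± 0.11. The exception was AT4G21870, with means of 49.7 in stamens to 199 in carpels, against 199 ± 18.9 in whole flowers.

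On the same scale the log2 difference of Hop3 was 3.47 and that of ATHSP22.0 was 3.31, within the range of the list. The same 9 heat shock genes had all 12 stage 12 organ arrays above the 3 whole-flower arrays, as did 1.49% of all probe sets, although AT1G52560 was below the floor in stamens. At stage 15 the list had 6 of 10 genes that rose in the organs, with a median log2 difference of 1.10, against 0.351% of all probe sets. The genes below the floor in stage 12 flowers were so in stage 15 flowers too, so again only a rise could be called for them. AT1G54050 led again with a log2 difference of 3.06 ± 0.15, and AT5G37670, AT2G29500 and AT5G48570 followed with 2.02 ± 0.13, 1.85 ± 0.12 and 1.13 ± 0.11. With the petals left out, or with a pseudocount of 22.6, 3 of the 10 rose at stage 15. At stage 15 all organ arrays of 7 heat shock genes lay above the whole flowers, against 0.873% of all probe sets, but for AT1G52560 both sides were below the floor. The log2 difference at stage 15 was 1.17 for Hop3 and 0.85 for ATHSP22.0.

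**Figure D3:**
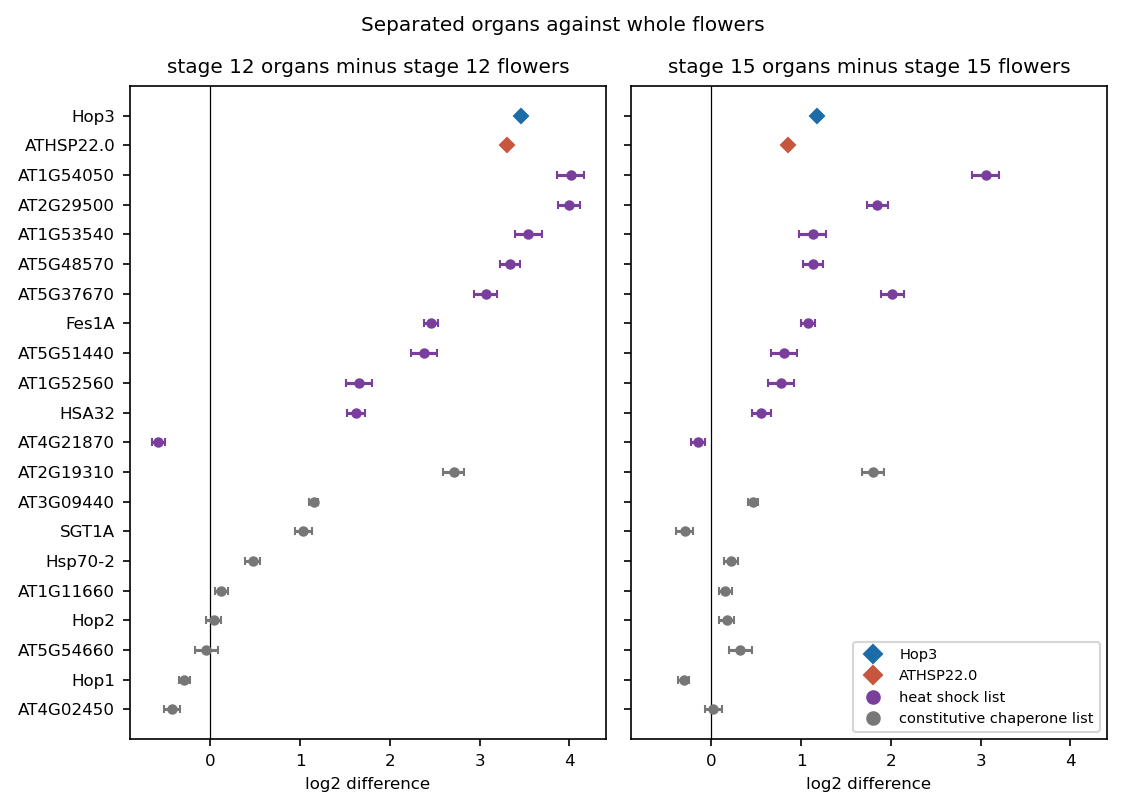
Log2 difference (horizontal) of the mean of 4 separated organs minus whole flowers at stage 12 (left) and stage 15 (right), for the 2 members (diamonds, no error drawn), 10 heat shock genes and 9 constitutive chaperone genes (circles with SE bars). At stage 12, 9 heat shock genes lie between 1.63 and 4.02, with the members at 3.47 and 3.31, and Hop1 and Hop2 lie near 0.

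The other Hop genes were not called in this comparison. Hop1 averaged 103 over the stage 12 organs and 118 ± 11.3 in stage 12 flowers, a log2 difference of -0.29 ± 0.07, below the 2-fold limit. Hop2 averaged 221 over the organs and 208 ± 11.2 in flowers, with a log2 difference of 0.04 ± 0.08 (limma adjusted p = 0.73). Both are known to be expressed in unstressed plants. They belong to a list of 28 constitutive chaperone genes, of which 9 have a named probe set of their own. Of the 9 constitutive chaperone genes tested, 3 rose in the stage 12 organs, against 0.992% of all probe sets, with a list median of 0.12: AT2G19310, a small heat shock protein gene, by 2.71 ± 0.12, AT3G09440, a cytosolic HSP70 gene, by 1.15 ± 0.05, and SGT1A, an HSP90 co-chaperone gene, by 1.04 ± 0.09 on the log2 scale. At stage 15 only AT2G19310 of the 9 rose, against 0.351%.

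ATHSP22.0 belongs to the endoplasmic reticulum, so genes of folding in that compartment and of its unfolded protein response were read beside it. Of 18 genes on this list, 6 have a named probe set of their own, and BIP1, BIP2 and BIP3 are not among them. None of 6 was called by limma in the organs against whole flowers at stage 12 or stage 15, though 5 had an unadjusted p under 0.05 at each stage with differences under 2-fold, as did 51.8% of all probe sets at stage 12 and 51.6% at stage 15. The list median was -0.08 for the younger organs and -0.49 for the older ones. At stage 12, 1 of the 6, BZIP28, had all 12 organ arrays above all 3 whole-flower arrays, as did 1.49% of all probe sets.

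Genes that respond early to wounding and touch were read beside these results, since the organs were separated from the flower. Of 17 genes on this list, 4 have a named probe set of their own. Of 4 such genes tested, 3 rose in the stage 12 organs against whole flowers, with a list median of 1.42, and 1 rose at stage 15, against 0.992% and 0.351% of all probe sets. With the sepals left out, 1 of the 4 rose at stage 12. AT4G29780 rose by 2.99 ± 0.08, STZ, a zinc finger repressor gene, by 1.53 ± 0.07 and CML38, a calmodulin-like gene, by 1.32 ± 0.14 on the log2 scale. The fourth, CML41, had a log2 difference of -0.50 ± 0.11, below the 2-fold limit, but its organs differed. It averaged 331 ± 32.7 in stage 12 sepals and 27.9 ± 2.56 in carpels, against 68.0 ± 4.05 in whole flowers. In stage 12 petals and stamens CML41 was below the floor. AT4G29780 averaged 846 ± 93.4 in stage 12 petals, 920 ± 43.9 in carpels, 279 ± 5.56 in stamens and 823 ± 32.9 in sepals, against 72.1 ± 5.96 in whole flowers. All of its organ arrays lay above the whole flowers at both stages, as did those of 1.49% and 0.873% of all probe sets. Over the 22 group means its correlation was 0.881 with Hop3 and 0.836 with ATHSP22.0, against 0.881 between the 2 members. The other wound and touch genes had correlations of 0.05 to 0.40 with Hop3 and -0.17 to 0.29 with ATHSP22.0. STZ averaged 599 ± 9.26 in stage 12 sepals and 239 ± 9.15 in carpels, but 40.3 ± 2.16 in petals and 49.8 ± 2.51 in stamens, where whole flowers had 40.3 ± 5.33. CML38 was below the floor in stage 12 petals and stamens. It was also below the floor in whole stage 12 flowers, so only a rise could be called for it. The summed signal of the 4 genes was 1897 to 2045 in stage 12 sepals, 1215 to 1275 in carpels, 855 to 1031 in petals and 337 to 363 in stamens, against 183 to 194 in stage 12 flowers. A list of dehydration and late embryogenesis genes was read in the same comparisons, with 4 genes tested. None was called higher in the organs at either stage, against the 0.992% and 0.351% above. At stage 12 LEA was called lower, with a log2 difference of -3.01 ± 0.13 (limma adjusted p = 3.7e-28). That difference averages log2 values over the organs, and the linear averages were 305 over the organs and 429 ± 16.0 in whole flowers. LEA averaged 1191.5 ± 89.6 in stage 12 stamens, above whole flowers, and was below the floor in the other stage 12 organs. The part of separation in the levels of Hop3 and ATHSP22.0 was not tested.

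Most of the heat shock list was lower in stage 15 than in stage 12 organs. At stage 15 against stage 12, 6 of 10 genes fell in sepals, where 9.91% of all probe sets did, and 8 of 10 fell in petals, where 13.7% did. In stamens 5 fell and 1 rose, against 12% of all probe sets in each direction. In carpels 8 of 10 fell, against 1.21%. The list medians were -1.57 in sepals, -1.46 in petals, -1.18 in stamens and -2.06 in carpels on the log2 scale, while the median of all probe sets lay between -0.12 and 0.01.

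AT5G48570 fell by 3.18 ± 0.14 in carpels on the log2 scale, with 39.2 ± 1.89 at stage 15 and 446 ± 18.4 at stage 12 (limma adjusted p = 1.2e-26). It also fell by 2.64 ± 0.14 in petals and by 2.46 ± 0.14 in sepals. AT1G53540 fell by 3.14 ± 0.19 in carpels and by 2.59 ± 0.19 in petals. The gene that rose in stamens was AT4G21870, with 236 ± 9.98 at stage 15 and 49.7 ± 6.18 at stage 12, a log2 difference of 2.03 ± 0.10 (limma adjusted p = 1.1e-26), while it fell by 1.77 ± 0.10 in sepals. Of the 9 constitutive chaperone genes, 3 fell in carpels, against 1.21% of all probe sets. They were AT2G19310, SGT1A and AT3G09440, which fell by 1.71 ± 0.15, 1.16 ± 0.12 and 1.02 ± 0.07 on the log2 scale. In petals 1 of the 9 fell, SGT1A, by 1.23 ± 0.12, where 13.7% of all probe sets fell. With quantile normalization 2 of the 9 fell in petals. Of the 6 endoplasmic reticulum folding genes, 4 fell in petals and 3 in stamens, against the 13.7% and 12% of all probe sets given above. CRT1b, a calreticulin gene, fell by 2.42 ± 0.08 in stamens and by 2.25 ± 0.08 in petals, and AT4G16660 fell by 2.17 ± 0.10 in stamens and by 2.03 ± 0.10 in petals on the log2 scale.

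**Figure D4:**
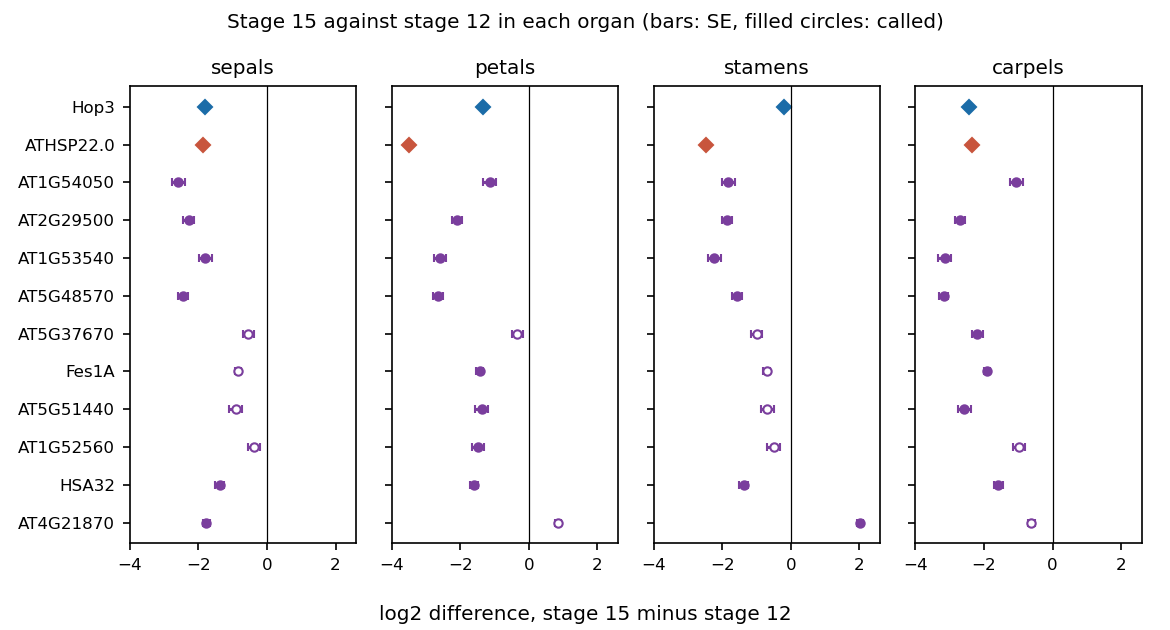
Log2 difference of stage 15 minus stage 12 (horizontal) in sepals, petals, stamens and carpels, for the 2 members (diamonds, no error drawn) and 10 heat shock genes (circles with SE bars, filled where called). Hop3 lies near 0 in stamens at -0.19, where ATHSP22.0 is at -2.47, and AT4G21870 is to the right of 0 in stamens at 2.03.

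Petals had the highest means of both members at stage 12, but at stage 15 Hop3 was highest in stamens and ATHSP22.0 in carpels. In stage 15 petals 6 of 10 heat shock genes were higher than in the mean of the other 3 organs, against 6.05% of all probe sets, led by AT5G37670 with a log2 difference of 1.40 ± 0.13 and AT4G21870 with 1.35 ± 0.08. With a pseudocount of 22.6 the count was 3. At stage 12 it was 2 of 10 (AT5G48570 by 1.34 ± 0.12 and AT1G53540 by 1.23 ± 0.15), against 5.07%. In stage 15 pedicels 7 of 10 genes were lower than in the mean of the 4 stage 15 floral organs, against 10.6% of all probe sets, led by AT1G54050 with 40.6 ± 9.29 in pedicels and 481 over the organs. With a pseudocount of 22.6 this count was 4.

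In mature pollen 3 of 10 heat shock genes were higher than in stage 15 stamens, against 18.8% of all probe sets, and 2 were lower, against 30.5%. With quantile normalization 5 were higher, and with scaling to the 75th percentile 6 were. The largest of these differences was that of AT4G21870, which fell to 18.8 ± 6.53 in pollen, with 1 of 3 arrays above the floor, against 236 ± 9.98 in stamens, a log2 difference of -3.06 ± 0.10. AT1G53540 had 212 ± 87.6 in pollen and 33.0 ± 1.19 in stamens, a log2 difference of 2.24 ± 0.19, and AT2G29500 had 272 ± 80.9 in pollen and 72.1 ± 15.2 in stamens, a log2 difference of 1.74 ± 0.15. These SEs rest on 1 spread per gene shared by all 22 groups, so they do not reflect the wide spread of these pollen arrays. AT5G48570 was the third that rose, by 1.35 ± 0.14, and AT5G37670 was below the floor in pollen and at least 3.74-fold lower. Hop2 fell to 27.3 ± 5.74 in pollen, against 192 ± 24.6 in stage 15 stamens, and Hop1 was below the floor in pollen, at least 2.13-fold lower.

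Of the 10 heat shock genes, 1 was called in the mutants. AT1G54050 rose in lfy-12 flowers, with 168 ± 17.2 against 68.1 ± 11.1 in wild-type flowers, a log2 difference of 1.18 ± 0.19 (limma adjusted p = 4.8e-07), where 9.8% of all probe sets were called. By limma none of the 10 genes was called in clv3-7, where 0.697% of probe sets were, nor in ap1-15 (5.58%), ap2-6 (6.43%), ap3-6 (7.31%), ag-12 (7.08%) or ufo-1 (5.08%). However, AT2G29500, AT1G53540, AT5G37670, AT5G51440 and AT1G52560 were below the floor on all wild-type whole-flower arrays of stages 9, 10/11, 12 and 15. For them only a rise from these flowers could be called, so the absence of calls does not show a steady level. The number of the 10 with an unadjusted p under 0.05 was 2 in clv3-7 (22.6% of all probe sets), 2 in ag-12 (40.6%), 5 in ap1-15 (52.6%), 4 in ap2-6 (51.1%), 4 in ap3-6 (51.5%) and 0 in ufo-1 (44.2%). Between successive whole-flower stages limma called none of the 10, against 3.15% of probe sets at stage 10/11 minus stage 9, 6.27% at stage 12 minus stage 10/11 and 12.2% at stage 15 minus stage 12. The numbers with an unadjusted p under 0.05 were 1, 3 and 3 of 10 in these steps, against 38%, 43.3% and 59.9% of all probe sets.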

How the data were processed

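The deposited values are MAS5 signal intensity on a linear scale, 1 column per array, per the submitters' processing notes. As deposited, each array's trimmed mean lay at 100.01 to 100.02, so the arrays share 1 scale. Genome build and laboratory steps beyond this are not given in the sources used here. Probe sets were named through the platform annotation: a single gene stands for 13513, several for 503 and no gene for 8730, and 13436 of the single-gene ones matched a locus. No array repeats another. The 64 control probe sets and 5100 dim ones, above the floor on all arrays of no group, were left out.

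For tests, log2 of signal plus 11.3 (0.5 of the floor) went into limma 3.58.1 under R 4.3.3, with 1 mean per group over 66 arrays, with trended empirical Bayes and Benjamini-Hochberg adjustment; tables were handled in Python 3.11.15. The script was tested on simulated data. The members and gene lists were chosen with earlier results of these data known, and the 2 organ against whole-flower comparisons after the levels were seen. Genes named are the members, the 5 genes most like each, all Hop genes tested, and up to 4 called genes per list and comparison by size of change; other genes named were chosen after their values were seen. Alternatives changed the pseudocount, scaling, dim filter, groups in the fit, eBayes, the replicate block and single arrays. The number of arrays limits the precision.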

Additional observations from a re-analysis of the deposited data

Results flagged for a closer look

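The stage 15 minus stage 12 difference of Hop3 ran in opposite directions in whole flowers and in organs: the log2 difference was 0.85 in whole flowers, where every stage 15 array lay above every stage 12 array, and -1.80 in sepals, -1.35 in petals, -0.19 in stamens and -2.43 in carpels, where every stage 15 array lay below. AT4G21870 rose by 2.03 in stamens and had a difference of 0.85 in petals, against -1.77 in sepals, -0.62 in carpels and -0.31 in whole flowers on the log2 scale. The differences between these changes were not tested, and the share of all probe sets whose arrays did not overlap between these stages was not counted.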

How the results depend on the processing

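With no pseudocount, 3 heat shock genes were called in ag-12, 1 in ap3-6, 1 in ap2-6, 2 in ap1-15 and 1 at stage 12 minus stage 10/11 flowers, against 0 each. A pseudocount equal to the floor left 3 of 10 higher in stage 15 petals, 4 lower in pedicels and 3 higher in stage 15 organs than in flowers, as did leaving out the petals (3; chosen after seeing the data). In pollen 5 were higher with quantile normalization and 6 with 75th percentile scaling. The log2 difference of organs minus flowers was, with no pseudocount, 4.37 for Hop3 and 4.05 for ATHSP22.0 at stage 12 and 1.39 and 1.28 at stage 15; with the larger pseudocount 2.96, 2.86, 1.02 and 0.65; and with quantile normalization 3.46 for ATHSP22.0 at stage 12, and 1.33 for Hop3 and 1.11 for ATHSP22.0 at stage 15. The Spearman correlation of the members was 0.743. No log2 difference of the members of at least 1 in size changed sign, and neither did their correlation. Sign changes of smaller differences were not counted. Values with a lower pseudocount rest on signals below the floor. Same-letter arrays were not treated as pairs in the main fit. Of 44 same-letter pairs, 2 correlated above 0.1 in their deviations from the group means, with a range of -0.139 to 0.116. These values do not show whether arrays of a letter were made together. With a replicate block 9 and 6 heat shock genes rose in stage 12 and stage 15 organs and 5 were lower in pedicels, with no count moved by over 1.5 times. Leaving out 1 array at a time gave 9 to 9 and 5 to 6 genes higher in stage 12 and stage 15 organs.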
